A study of Mus musculus with 36 samples.

Results

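The 10 genes described here, *Pdk4*, *Angptl4*, *Plin2*, *Cpt1a*, *Cpt1b*, *Ucp2*, *Ucp3*, *G0s2*, *Pnpla2* and *Cd36*, are PPAR-responsive genes of fatty acid use and of the lipid droplet. They were picked by name out of the 55416 genes of the count table, and the rule itself uses no measured value. Poly-A RNA was sequenced from myotubes of C2C12, a mouse myoblast cell line, on day 4 of differentiation. There were 36 libraries in 6 groups of 6. Every group carried an antisense LNA oligonucleotide, a short modified strand that directs cleavage of its target RNA. The control groups carried a negative control LNA and the *Tug1* knockdown (KD) groups an LNA against *Tug1*, a long noncoding RNA. Each LNA was studied in 3 states. Rest myotubes had electrodes in the medium without current, EPS 0h myotubes were harvested at the end of 3 h of electrical pulse stimulation (EPS), and EPS 3h myotubes were harvested after 3 h of recovery. The model is therefore 1 immortalised line in culture, in which EPS stands in for exercise and each library is 1 well. Each LNA had a single Rest group, and no unstimulated group is labelled with a recovery period. Steps to EPS 3h thus include 3 h of further culture with the LNA, which cannot be told apart from recovery after EPS. By the study's methods the wells came as triplicates from 2 independent experiments. The labels do not name the experiment, but replicates 1 to 3 parted from replicates 4 to 6 along the first principal component in 5 of the 6 groups (the exception was EPS 3h *Tug1* KD), so these are called the first and the second replicate set, and values within each are given beside the pooled ones. The pooled test has no term for the set, so its results measure the spread between wells together with that between the sets. Wells of 1 experiment are not independent experiments.

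Peroxisome proliferator-activated receptors (PPARs) are nuclear receptors that bind fatty acids and their derivatives. They pair with a retinoid X receptor on DNA at direct repeats of a short hexamer with a single base between them, called DR1 elements, and they recruit coactivators such as PGC-1α. In muscle their target genes cover the uptake of fatty acids, their storage in and release from lipid droplets, their entry into mitochondria, and the sparing of glucose while fat is burned.

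Counts on genes ran from 17005079 to 24181167 per library. Levels are given in CPM, counts scaled to the library size with TMM factors. *Tug1* itself was lower in KD than in control myotubes at Rest (27.2 ± 3.69 against 48.4 ± 6.78 CPM, mean ± SD, n = 6 each, log2FC = -0.83, FDR = 0.000915), at EPS 0h (log2FC = -0.57, FDR = 0.0178) and at EPS 3h (log2FC = -0.51, FDR = 0.0414). At EPS 0h and EPS 3h the libraries overlapped, and the first set alone did not pass (FDR = 0.266 and 0.227), while the second did. *Tug1* also rose with EPS against Rest, each time with an FDR under 0.05. At EPS 0h and EPS 3h the log2FC was 0.48 and 0.75 in control, and 0.74 and 1.06 in KD myotubes. Its mean in KD myotubes at EPS 3h (57.0 CPM) thus stood above that of Rest control. All 8 myotube markers examined passed the expression filter, with a summed level of 11727 to 18333 CPM over the libraries. None of 7 adipocyte markers passed it, and their summed level was at most 4.72 CPM. The 5 genes listed for myoblasts were *Pax7*, *Myf5* and the cell cycle genes *Mki67*, *Cdk1* and *Ccnb1*. They summed to a median of 110 CPM in Rest control and 144 CPM in EPS 0h control libraries. Between these groups 2 of the 5 were called higher and 1 lower at EPS 0h (20.5% and 18.4% of all tested genes). The 4 fibroblast markers summed to 235 to 423 CPM over all libraries. In such bulk RNA, fewer cells of a type and less RNA per cell cannot be told apart.

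Of the 10 genes, 8 passed the filter of at least 1 CPM in at least 12 libraries and were tested with 13995 genes in all. *Ucp3*, at 0 to 33 counts per library, and *Cpt1b*, at 0 to 12 counts, did not. Per kilobase of the canonical transcript, *Plin2* was the most abundant in Rest control myotubes (134 ± 16.4 RPKM, that is CPM divided by the transcript length in kilobases, n = 6), followed by *Ucp2* (34.6 ± 3.82 RPKM). *G0s2* (17.5 ± 1.79 RPKM), *Pnpla2* (17.4 ± 2.20 RPKM) and *Angptl4* (16.1 ± 4.11 RPKM) came next and did not differ beyond their spread, nor did *Pdk4* (12.1 ± 1.25 RPKM) and *Cpt1a* (12.01 ± 2.60 RPKM). *Cd36* was at 5.56 ± 1.05 RPKM, *Ucp3* at 0.408 ± 0.0815 RPKM and *Cpt1b* at 0.0890 ± 0.0529 RPKM. The lipid droplet coat gene thus had the highest counted level per length, and the muscle forms of the uncoupling and carnitine transferase genes had the lowest. The place of *Cpt1b* is uncertain, since it shares its strand and span with another annotated gene, as given below.

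**Figure D1:**
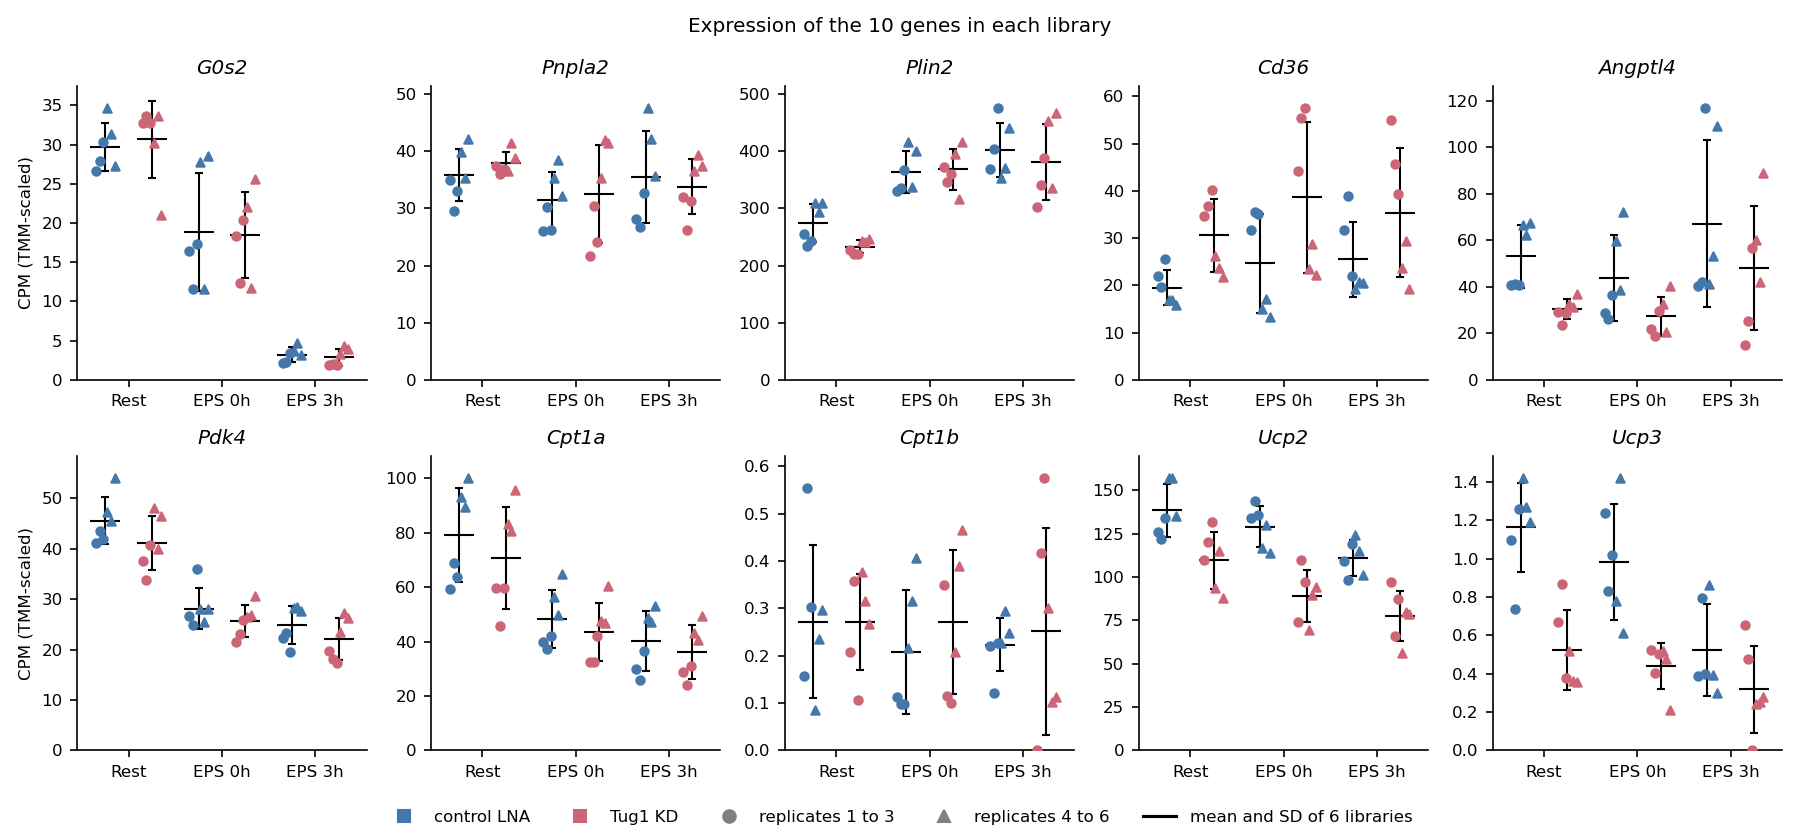
Level of each of the 10 genes in every library, in TMM-scaled CPM on a linear axis that starts at 0, for control (blue) and *Tug1* KD (red) myotubes at Rest, EPS 0h and EPS 3h. Circles are replicates 1 to 3, triangles replicates 4 to 6, and bars the mean and SD of 6 libraries. *G0s2* falls to 2.10 to 4.65 CPM in the EPS 3h control libraries, while *Plin2* is at 353 to 476 CPM there.

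The first question was how EPS moved these genes in control myotubes. At EPS 0h, 1 of the 8 tested genes was higher than at Rest (*Plin2*) and 3 were lower (*Pdk4*, *Cpt1a* and *G0s2*), while 20.5% of all tested genes were higher and 18.4% lower. At EPS 3h, 1 was higher (*Plin2*) and 4 were lower (the same 3 and *Ucp2*), while 26.1% of all tested genes were higher and 25.9% lower. The median log2FC of the 8 genes was -0.24 at EPS 0h and -0.17 at EPS 3h, and that of all tested genes was -0.03 and -0.02. Both comparisons used the same Rest control libraries, and no Rest group was matched to the recovery time. In *Tug1* KD myotubes the counts were 1 higher and 4 lower at EPS 0h (24.4% and 21.2% of all tested genes) and again 1 higher and 4 lower at EPS 3h (26.2% and 25.9%). Between EPS 0h and EPS 3h, *G0s2* alone of the 8 was called in the pooled test. It was lower at EPS 3h in control (9.67% of all tested genes higher, 6.88% lower) and in KD myotubes (8.59% higher, 7.13% lower). With the replicate set as a term in the fit (an experiment block), *Cpt1a* was also lower in both, and *Angptl4* was higher in KD myotubes. That fit called 23.5% of all tested genes in either direction in control and 22.2% in KD myotubes. The split of all tested genes depended on the scaling. With library size as the only scaling, EPS 0h against Rest in control gave 16.6% higher and 24.9% lower, and EPS 3h gave 19.1% and 39.5%. In KD myotubes these shares were 20.3% and 29.7%, then 20.02% and 40.5%. From EPS 0h to EPS 3h they were 7.37% and 12.5% in control, and 7.31% and 12.4% in KD myotubes. Under that scaling the calls among the 8 genes kept their direction and *Pnpla2* was added for KD at EPS 3h against Rest (-0.33).

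**Figure D2:**
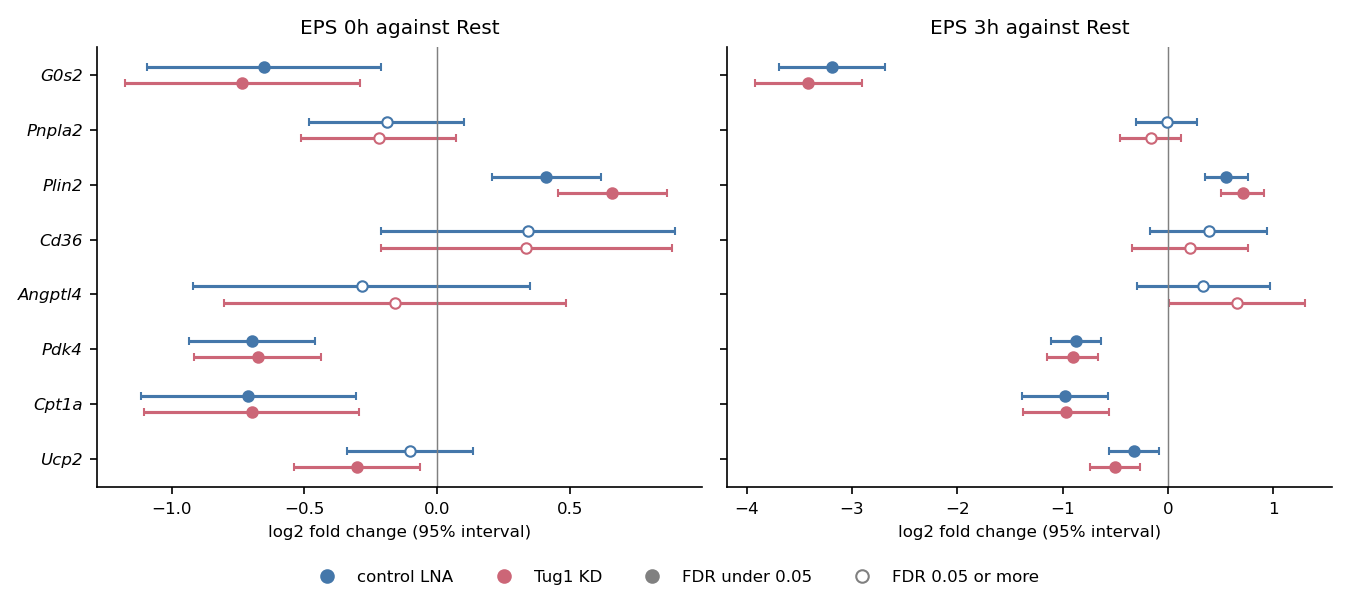
Log2 fold change of the 8 tested genes at EPS 0h (left) and EPS 3h (right) against Rest, with 95% intervals, in control (blue) and *Tug1* KD (red) myotubes. Filled points have an FDR under 0.05. The 2 panels have different horizontal scales, and *G0s2* at EPS 3h lies at -3.19 in control and -3.41 in KD myotubes.

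Among the lipid droplet genes, *G0s2* (ENSMUSG00000009633, chr1:192949563-192956177, minus strand, GRCm39) encodes a small protein that inhibits the triglyceride lipase ATGL. In control myotubes it ranged from 26.7 to 34.7 CPM (median 29.1) at Rest, from 11.6 to 28.5 CPM (median 16.9) at EPS 0h and from 2.10 to 4.65 CPM (median 3.32) at EPS 3h. The EPS 3h libraries lay below every other library, whereas Rest and EPS 0h overlapped. The log2FC was -0.65 ± 0.22 (SE, FDR = 0.0159) at EPS 0h and -3.19 ± 0.24 (FDR = 3.63e-13) at EPS 3h, a 9.12-fold lower level. The step from EPS 0h to EPS 3h was -2.54 ± 0.24 (FDR = 1.81e-09).

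The earlier fall passed the test in the first set and not in the second, and the difference between the sets was not tested. At EPS 0h the log2FC of *G0s2* was -0.91 in the first set (FDR = 0.000621) and -0.46 in the second set (FDR = 0.226), where 2 libraries at 27.8 and 28.5 CPM stood within the Rest range and 1 at 11.6 CPM did not. Without the low count filter the pooled EPS 0h value also missed the threshold (FDR = 0.0515). At EPS 3h both sets showed the fall (-3.42 and -3.01). In *Tug1* KD myotubes *G0s2* went from a median of 32.8 CPM at Rest to 19.4 CPM at EPS 0h (log2FC = -0.73 ± 0.22, FDR = 0.00599; -0.52 and FDR = 0.177 in the second set) and 2.61 CPM at EPS 3h (log2FC = -3.41 ± 0.25, FDR = 7.65e-14). *G0s2* lies within *Lamb3* on the opposite strand, a gene with 276 to 1400 counts per library. The kit keeps the strand, but the strand setting of the counting is not given in the sources used here.

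*G0s2* was also the only 1 of the 10 genes with a perfect DR1 element, AGGTCANAGGTCA on either strand, within 5000 bases of its canonical start site. Over 21757 protein-coding genes, 2.08% had such a match in the same window of 10001 bases. With 1 base of each hexamer free to vary (AGGNCANAGGNCA), *Cpt1b* also matched, against 16.5% of genes. Both elements are shown because they were the only matches to these patterns in the windows of the 10 genes. DR1 elements with other letters were not searched, so their absence from the other genes cannot be read from this. Capitals mark the repeat, with 8 bases on either side. They were read from the GRCm39 genome on the strand of the match.
G0s2: gtgtatggAGGTCAGAGGTCAaccttgag
Cpt1b: ggtaagtaAGGGCAGAGGACAtctttcag
The *G0s2* match (chr1:192959119-192959131, plus strand) lies upstream, at -3600 bases from the start site, in an intron of *Lamb3*. The *Cpt1b* match (chr15:89305368-89305380, minus strand) lies 4851 bases downstream of its start site, in an intron of *Cpt1b*. These are matches of letters, and binding was not measured.

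*Pnpla2* (ENSMUSG00000025509, chr7:141034404-141040656, plus strand) encodes ATGL itself, the lipase that takes the first fatty acid off a stored triglyceride. It ranged from 29.6 to 42.1 CPM (median 35.2) at Rest, from 26.0 to 38.5 CPM (median 31.3) at EPS 0h and from 26.8 to 47.6 CPM (median 34.2) at EPS 3h in control myotubes. The 3 states overlapped. The log2FC at EPS 3h was -0.01, with a 95% interval of -0.30 to 0.28, so a change of the size seen for its inhibitor lies outside the interval. In KD myotubes at EPS 0h the log2FC was -0.22 (FDR = 0.21). With the replicate number as a block it was -0.25 and passed the threshold (FDR = 0.0292), with -0.52 in the first set and 0.02 in the second set.

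*Plin2* (ENSMUSG00000028494, chr4:86565912-86588459, minus strand) encodes perilipin 2, the coat protein of lipid droplets in most cells outside fat tissue. It ranged from 235 to 309 CPM (median 274) at Rest, from 330 to 416 CPM (median 352) at EPS 0h and from 353 to 476 CPM (median 388) at EPS 3h. Every EPS library lay above every Rest library in control myotubes. The log2FC was 0.41 ± 0.10 (FDR = 0.00124) at EPS 0h and 0.55 ± 0.10 (FDR = 1.7e-05) at EPS 3h. In the second set alone the values were 0.34 (FDR = 0.051) and 0.35 (FDR = 0.0279), and in the first set they were 0.49 and 0.79. In KD myotubes *Plin2* rose from a median of 234 CPM at Rest to 367 CPM at EPS 0h (log2FC = 0.66 ± 0.10, FDR = 1.88e-06) and 364 CPM at EPS 3h (log2FC = 0.71 ± 0.10, FDR = 2.55e-07), again with no overlap with Rest. *Plin2* and *G0s2* were thus called in opposite directions in each of these 4 comparisons.

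The promoter of *Plin2*, the only gene of the group that was higher after EPS in the pooled test, held 2 single hexamers (AGGTCA on either strand). At least 1 such hexamer was present in 4 of the 10 promoters (*Plin2*, *Ucp3*, *Cpt1a* and *Cpt1b*) and in 15.1% of 21757 protein-coding genes. The *Ucp3* promoter also held 2, and those of *Cpt1a* and *Cpt1b* held 1 each. At EPS 3h in control, *Cpt1a* was called lower, and so was *Ucp3* in the fit without the low count filter. The promoter is shown from 250 bases before to 50 bases after the start site (chr4:86588410-86588709, minus strand, GRCm39), with the hexamers in capitals.
Plin2 promoter: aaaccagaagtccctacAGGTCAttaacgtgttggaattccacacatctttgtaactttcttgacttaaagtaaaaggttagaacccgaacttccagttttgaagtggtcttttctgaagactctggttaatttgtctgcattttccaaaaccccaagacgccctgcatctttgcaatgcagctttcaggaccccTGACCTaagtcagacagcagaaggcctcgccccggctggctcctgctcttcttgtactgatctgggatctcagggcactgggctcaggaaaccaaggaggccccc

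For the uptake of fatty acids from outside the cell, the mean of *Cd36* was higher in the first replicate set in every group. The mean of *Angptl4* was higher in the second set, except in EPS 3h control myotubes, where the sets were alike (66.5 and 67.8 CPM). *Cd36* (ENSMUSG00000002944, chr5:17986432-18094067, minus strand) encodes the fatty acid translocase of the plasma membrane. In control myotubes it ranged from 15.8 to 25.5 CPM (median 18.4) at Rest, from 13.4 to 35.5 CPM (median 24.5) at EPS 0h and from 19.2 to 38.9 CPM (median 21.4) at EPS 3h. The states overlapped in the pooled libraries. At EPS 0h, the 3 libraries of the first set were at 31.7 to 35.5 CPM and those of the second set at 13.4 to 17.2 CPM. The log2FC at EPS 0h was 0.34 (FDR = 0.334) pooled, 0.61 (FDR = 0.01) in the first set and -0.13 (FDR = 0.545) in the second set. At EPS 3h it was 0.39 (FDR = 0.235) pooled and, with the replicate block, 0.36 (FDR = 0.0179), with 0.48 and 0.28 in the 2 sets.

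*Angptl4* (ENSMUSG00000002289, chr17:33992724-34000804, minus strand) encodes a secreted inhibitor of lipoprotein lipase. In control myotubes it ranged from 40.6 to 67.3 CPM (median 51.7) at Rest, from 26.0 to 72.4 CPM (median 37.5) at EPS 0h and from 40.4 to 117 CPM (median 47.7) at EPS 3h. Only 2 of the 6 EPS 3h libraries, at 109 and 117 CPM, 1 from each set, stood above all Rest libraries. The log2FC at EPS 3h against Rest was 0.34 ± 0.31 (FDR = 0.376). It was 0.72 in the first set and 0.05 in the second set, and neither passed the threshold. In KD myotubes, *Angptl4* ranged from 18.7 to 40.2 CPM (median 25.9) at EPS 0h and from 15.1 to 88.9 CPM (median 49.5) at EPS 3h. That step had a log2FC of 0.81 (FDR = 0.0774), and it passed with the replicate set as a term (0.77, FDR = 0.0371) and with the replicate block (0.72, FDR = 0.00915). In control myotubes the step was 0.62 (FDR = 0.197), and 0.70 (FDR = 0.054) with the replicate set as a term.

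Of the genes that steer fuel into the mitochondrion, *Cpt1a* (ENSMUSG00000024900, chr19:3371853-3437996, plus strand) encodes the liver form of carnitine palmitoyltransferase 1, the entry step of long-chain fatty acids for oxidation. In control myotubes it ranged from 59.4 to 100 CPM (median 79.2) at Rest, from 37.3 to 64.8 CPM (median 45.9) at EPS 0h and from 25.8 to 53.1 CPM (median 41.9) at EPS 3h. All EPS 3h libraries lay below all Rest libraries, and at EPS 0h the groups parted within each replicate set but overlapped when pooled. The log2FC was -0.71 ± 0.20 (FDR = 0.00432) at EPS 0h and -0.98 ± 0.20 (FDR = 9.47e-05) at EPS 3h. *Cpt1a* was higher in the second set than in the first set in every group. At EPS 0h its log2FC was -0.69 in the first set and -0.73 in the second set. At EPS 3h these values were -1.04 and -0.93, and all 4 passed the threshold. In KD myotubes it fell by 0.70 at EPS 0h (FDR = 0.00442) and by 0.97 at EPS 3h (FDR = 0.000109) on the log2 scale. The further step from EPS 0h to EPS 3h was -0.27 in control (FDR = 0.443) and in KD myotubes (FDR = 0.425). With the replicate set as a term it was -0.28 and passed the threshold in control (FDR = 0.0224) and in KD myotubes (FDR = 0.0237), where the replicate block gave -0.28 (FDR = 0.00266).

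*Pdk4* (ENSMUSG00000019577, chr6:5483097-5496339, minus strand) encodes a kinase that shuts off pyruvate dehydrogenase and so spares glucose. It ranged from 41.2 to 54.0 CPM (median 44.5) at Rest, from 24.9 to 35.9 CPM (median 27.3) at EPS 0h and from 19.5 to 28.5 CPM (median 25.5) at EPS 3h in control myotubes. Every EPS library lay below every Rest library. The log2FC was -0.70 ± 0.12 (FDR = 1.16e-05) at EPS 0h and -0.87 ± 0.12 (FDR = 1.09e-07) at EPS 3h, with a fall in both replicate sets at each time. In KD myotubes the values were -0.68 (FDR = 1.41e-05) and -0.90 (FDR = 5.46e-08), again without overlap. As a description over the 36 libraries, log2 CPM of *Pdk4* and *Cpt1a* had a Pearson r of 0.90, those of *Pdk4* and *G0s2* 0.76 and those of *Angptl4* and *Cd36* -0.71. These points share the groups and the replicate sets.

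*Cpt1b* (ENSMUSG00000078937, chr15:89300606-89310239, minus strand) encodes the muscle form of the same transferase. Its 0 to 12 counts per library gave group means of 0.208 to 0.272 CPM, too few to compare states. It shares its strand and span with the annotated readthrough gene *Gm44502*, which was at 0 counts in all 36 libraries, and the upstream gene *Chkb* had 0 to 17 counts. Reads in shared exons may have been left uncounted, so the level of *Cpt1b* is uncertain.

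The uncoupling protein genes encode carriers of the inner mitochondrial membrane that are linked to fatty acid handling. *Ucp2* (ENSMUSG00000033685, chr7:100142055-100151227, plus strand) ranged from 122 to 157 CPM (median 134) at Rest, from 114 to 144 CPM (median 132) at EPS 0h and from 98.1 to 124 CPM (median 112) at EPS 3h in control myotubes. The states overlapped. The log2FC was -0.10 (FDR = 0.51) at EPS 0h and -0.32 ± 0.12 (FDR = 0.0209) at EPS 3h, with -0.21 (FDR = 0.221) in the first set and -0.40 (FDR = 0.0235) in the second set. In KD myotubes *Ucp2* fell by 0.30 at EPS 0h (FDR = 0.0324) and by 0.50 at EPS 3h (FDR = 0.000452) on the log2 scale. The EPS 0h fall was -0.23 (FDR = 0.251) in the second set alone.

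*Ucp3* (ENSMUSG00000032942, chr7:100122136-100135976, plus strand), the form of skeletal muscle, was near the detection limit. In control myotubes it had 16 to 33 counts (mean 1.16 CPM) at Rest, 12 to 27 counts (mean 0.984 CPM) at EPS 0h and 6 to 19 counts (mean 0.522 CPM) at EPS 3h. In the fit without the low count filter, over 39727 genes, *Ucp3* was lower at EPS 3h than at Rest (log2FC = -1.23 ± 0.34, FDR = 0.00304), and its EPS 0h value was -0.27 (FDR = 0.642). The depth does not allow finer statements on this gene.

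The second question was how *Tug1* KD moved the genes within a state. At Rest none of the 8 tested genes passed the threshold with edgeR, while 5.54% of all tested genes were higher and 4.47% lower in KD. At an unadjusted p under 0.05 there were 4 of the 8, and the share of all tested genes at that level was not computed. Of the 8, limma-voom called 0, with 1461 called among all tested genes. DESeq2 called 1 of the 8, with 6.34% of all tested genes higher and 5.37% lower. The experiment block called 3, *Cd36* as higher and *Angptl4* and *Ucp2* as lower, and 15.9% of all tested genes in either direction. *Ucp2* was the only gene lower at EPS 0h (8.25% of all tested genes higher, 6.07% lower) and at EPS 3h (6.38% higher, 5.11% lower), and none of the 8 was higher in this pooled test. At EPS 0h the split of all tested genes was 7.05% higher and 7.99% lower with library size as the only scaling, and 6.81% and 8.65% with upper quartile factors. The median log2FC of the 8 was -0.16 at Rest, -0.08 at EPS 0h and -0.17 at EPS 3h, against -0.03, -0.0025 and -0.01 for all tested genes.

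**Figure D3:**
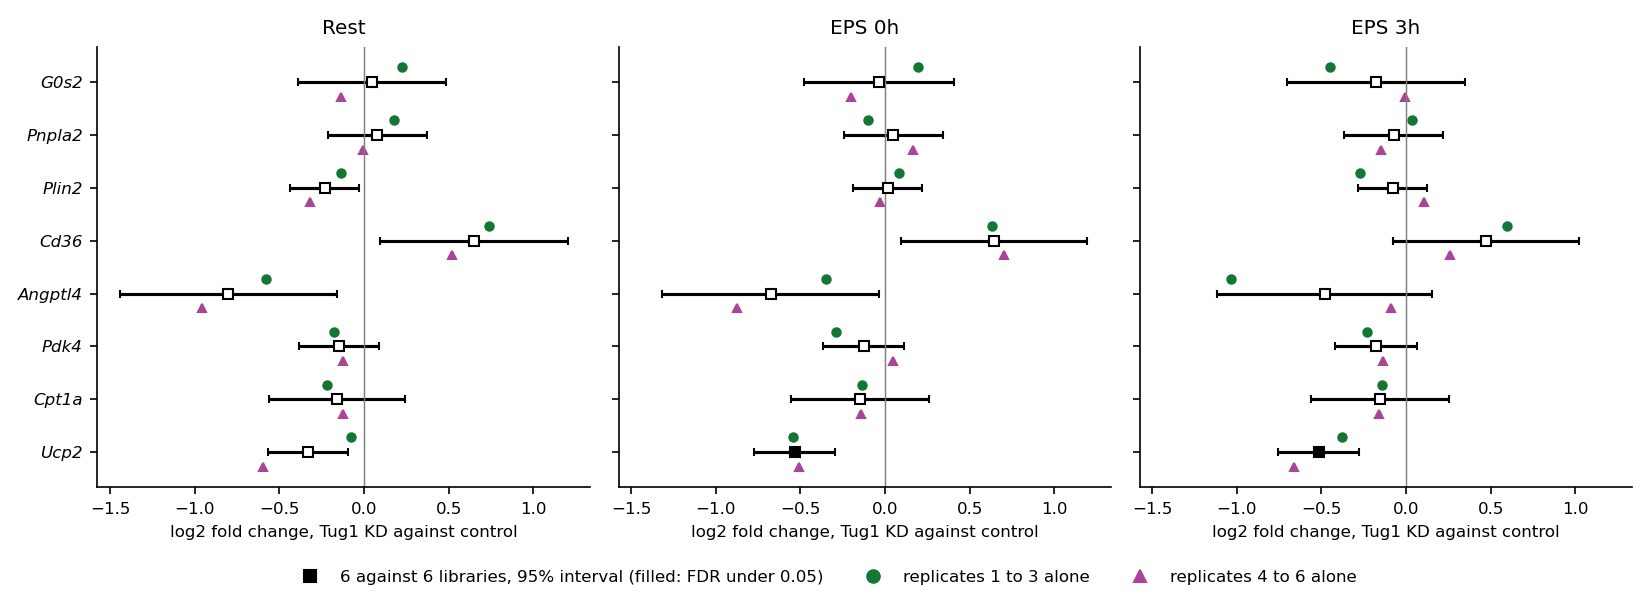
Log2 fold change of *Tug1* KD against control for the 8 tested genes at Rest, EPS 0h and EPS 3h. Squares are 6 against 6 libraries with 95% intervals, filled where the FDR is under 0.05, and circles and triangles are the same value within replicates 1 to 3 and 4 to 6. Only *Ucp2* at EPS 0h (-0.53) and EPS 3h (-0.52) is filled.

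*Ucp2* in *Tug1* KD myotubes ranged from 88.1 to 132 CPM (median 113) at Rest, from 69.4 to 110 CPM (median 92.0) at EPS 0h and from 56.2 to 97.2 CPM (median 79.2) at EPS 3h. At EPS 0h and at EPS 3h every KD library lay below every control library, and at Rest the groups overlapped. The log2FC was -0.53 ± 0.12 (FDR = 0.00126) at EPS 0h, a 1.45-fold lower level, and -0.52 ± 0.12 (FDR = 0.00235) at EPS 3h. At EPS 0h it was -0.54 in the first set and -0.51 in the second set, both past the threshold. At EPS 3h the first set gave -0.38 (FDR = 0.117) and the second set -0.66 (FDR = 0.00467). At Rest it was -0.33 (FDR = 0.0633), with -0.07 (FDR = 0.817) in the first set and -0.60 (FDR = 0.00668) in the second set, and it passed with the experiment block (-0.34, FDR = 0.0295). *Ucp2* overlaps *Dnajb13* on the opposite strand.

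*Ucp3* counts in KD myotubes were 7 to 17 at Rest, 5 to 11 at EPS 0h and 0 to 12 at EPS 3h. At EPS 0h the KD and control libraries did not overlap. Without the filter its log2FC was -1.12 (FDR = 0.0527) at Rest, -1.17 ± 0.35 (FDR = 0.0418) at EPS 0h and -0.73 (FDR = 0.468) at EPS 3h.

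*Cd36* in KD myotubes ranged from 21.8 to 40.3 CPM (median 30.5) at Rest, from 22.2 to 57.6 CPM (median 36.4) at EPS 0h and from 19.3 to 55.0 CPM (median 34.4) at EPS 3h. These ranges overlapped with control when pooled. Within each replicate set the KD and control libraries did not overlap at Rest or at EPS 0h, with KD higher. The pooled log2FC was 0.65 (FDR = 0.138) at Rest, 0.64 (FDR = 0.108) at EPS 0h and 0.47 (FDR = 0.3) at EPS 3h. In the first and the second set it was 0.74 and 0.52 at Rest, and 0.63 and 0.70 at EPS 0h. At EPS 3h it was 0.60 (FDR = 0.0462) in the first set and 0.26 (FDR = 0.261) in the second set, where the libraries overlapped. With the experiment block *Cd36* was higher in KD in all 3 states, at 0.62 (FDR = 0.000677), 0.65 (FDR = 0.000279) and 0.43 (FDR = 0.0185). With the replicate number as a block it was 0.65 (FDR = 0.000293) at EPS 0h and 0.43 (FDR = 0.0182) at EPS 3h. The experiment block called 22.7% of all tested genes in either direction at EPS 0h and 18.7% at EPS 3h.

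*Angptl4* was 23.6 to 36.9 CPM (median 30.5) in KD myotubes at Rest, and every KD library lay below every control library. The log2FC was -0.80 ± 0.31 (FDR = 0.109), with -0.58 in the first set and -0.96 (FDR = 0.0484) in the second set, and it passed the threshold with the experiment block (-0.77, FDR = 0.0446). At EPS 0h it was -0.68 (FDR = 0.158), with -0.63 (FDR = 0.0882) under the experiment block and -0.64 (FDR = 0.0191) under the replicate block, which alone of the 3 passed. At EPS 3h it was -0.48 (FDR = 0.375), with -1.03 in the first set and -0.09 in the second set. The EPS 3h libraries of both groups were the most scattered, from 15.1 to 117 CPM.

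For *Pdk4*, *Cpt1a*, *Plin2*, *G0s2* and *Pnpla2* no KD effect passed the pooled test in any state. The 95% interval at EPS 3h was -0.42 to 0.06 for *Pdk4*, -0.56 to 0.25 for *Cpt1a*, -0.28 to 0.13 for *Plin2*, -0.36 to 0.22 for *Pnpla2* and -0.71 to 0.35 for *G0s2*. *Plin2* at Rest was 220 to 247 CPM (median 234) in KD against 235 to 309 CPM in control, with a log2FC of -0.23 (FDR = 0.152), and -0.23 (FDR = 0.0771) with the experiment block. Within each set the groups did not overlap, with KD at 220 to 228 CPM against 235 to 255 CPM in the first set and at 241 to 247 CPM against 293 to 309 CPM in the second set. *Cpt1b* was not tested with the filter, and its group means in KD were 0.251 to 0.272 CPM.

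Whether *Tug1* KD altered the EPS response was tested as an interaction. None of the 8 genes passed it at EPS 0h or at EPS 3h, with 0 of 8 at an unadjusted p under 0.05 at both times and 0 called by limma-voom and by DESeq2. Over all tested genes the interaction called 0.0% at EPS 0h and 0.00715%, a single gene, at EPS 3h. The difference between the KD and control responses at EPS 3h was -0.22 for *G0s2* (95% interval -0.91 to 0.46), -0.03 for *Pdk4* (-0.37 to 0.31), 0.01 for *Cpt1a* (-0.56 to 0.58), 0.16 for *Plin2* (-0.13 to 0.44) and -0.18 for *Ucp2* (-0.52 to 0.15). The widest were those of *Angptl4* (0.32, -0.58 to 1.22) and *Cd36* (-0.18, -0.95 to 0.60), so for these genes sizeable differences lie within the interval.

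Of the receptors, *Pparg*, the PPAR best known from fat cells, was at 20.8 ± 3.66 CPM in Rest control myotubes (n = 6), 49.1 ± 8.19 CPM at EPS 0h and 62.6 ± 11.4 CPM at EPS 3h. It rose by a log2FC of 1.24 (FDR = 2.4e-10) and 1.59 (FDR = 1.68e-13), in both replicate sets. At both times *Plin2* was also called higher, and *Pdk4*, *Cpt1a* and *G0s2* were called lower. In KD myotubes *Pparg* was lower than in control at Rest (15.6 ± 1.56 CPM, log2FC = -0.41, FDR = 0.0178) and at EPS 3h (log2FC = -0.35, FDR = 0.0381). The first and the second set gave -0.64 and -0.19 at Rest, where the libraries overlapped, and -0.45 and -0.24 at EPS 3h. At EPS 0h the pooled value was -0.26 (FDR = 0.128). The summed level of the adipocyte markers also moved with EPS, from a median of 0.364 CPM at Rest to 2.16 CPM at EPS 0h and 3.53 CPM at EPS 3h in control libraries. Of the 7, only *Adipoq* reached a mean of 1 CPM in any group, and the part of such cells in these results was not tested.

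*Ppard*, the main PPAR of skeletal muscle, was at 63.4 ± 5.67 CPM at Rest, 45.0 ± 7.86 CPM at EPS 0h and 72.0 ± 29.2 CPM at EPS 3h in control myotubes. It rose from EPS 0h to EPS 3h (log2FC = 0.68, FDR = 0.0201), and against Rest it was -0.49 (FDR = 0.0562) and 0.18 (FDR = 0.477). *Ppara* did not pass the filter, with group means of 0.138 to 0.907 CPM. *Ppargc1a*, which encodes PGC-1α, passed no test, with 6.50 ± 2.52 CPM at Rest and 9.73 ± 3.79 CPM at EPS 0h (log2FC = 0.58, FDR = 0.151). Its relative *Ppargc1b* was higher in KD at EPS 0h (13.9 ± 2.39 against 8.73 ± 1.68 CPM, log2FC = 0.67, FDR = 0.0013) and at EPS 3h (log2FC = 0.63, FDR = 0.00366).

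**Figure D4:**
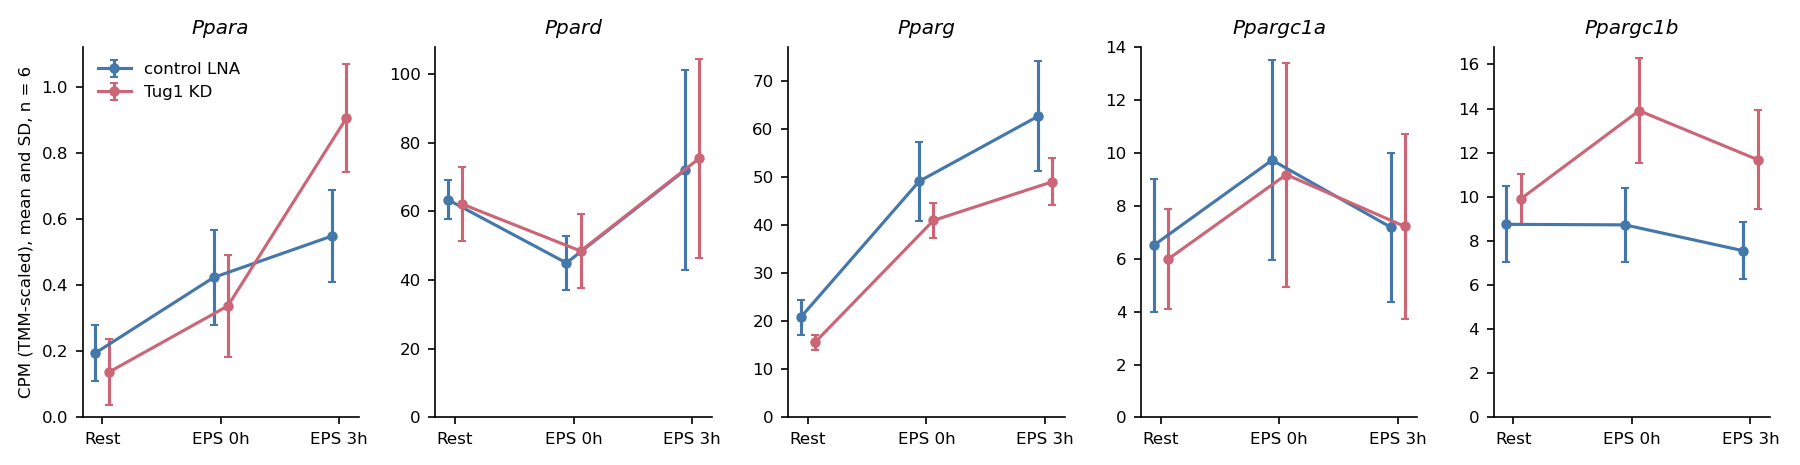
Mean level of the 3 PPAR genes and 2 coactivator genes in TMM-scaled CPM, with SD over 6 libraries, for control (blue) and *Tug1* KD (red) myotubes in each state. Each panel has its own axis from 0. *Pparg* climbs from 20.8 to 62.6 CPM in control myotubes, and the mean of *Ppara* stays under 1 CPM in every group.

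Beyond the 10 genes, 5 lists of the pathway held 88 further genes, of which 77 were tested. In control myotubes 7 were higher and 13 lower at EPS 0h, and 7 were higher and 20 lower at EPS 3h. In KD myotubes 8 were higher and 18 lower at EPS 0h, and 5 were higher and 22 lower at EPS 3h. With *Tug1* KD against control 4 were higher and 6 lower at Rest, 5 were higher and 12 lower at EPS 0h, and 5 were higher and 9 lower at EPS 3h. At EPS 3h in control the median log2FC was 0.10 for receptors and cofactors, -0.12 for uptake and activation, -0.09 for oxidation, -0.23 for triglyceride and droplet genes and 0.04 around pyruvate dehydrogenase, against -0.02 for all tested genes. Of all tested genes, 20.5% were higher and 18.4% lower at EPS 0h in control, and 26.1% and 25.9% at EPS 3h. With KD at Rest, 5.54% of them were higher and 4.47% lower. The counts here and in the single lists below are read against these shares and those given above.

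Among receptors and cofactors (13 tested), 4 were higher and 2 lower at EPS 0h (20.5% and 18.4% of all tested genes). At EPS 3h, 3 were higher and 2 lower (26.1% and 25.9%). The coactivator subunit *Med1* fell at EPS 0h (log2FC = -0.64, FDR = 3.34e-05). The coactivator *Ncoa2* was higher in KD at Rest (62.3 ± 8.01 against 45.6 ± 8.24 CPM, log2FC = 0.45).

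Fatty acid uptake, binding and activation (14 tested) had 1 lower at EPS 0h (18.4% of all tested genes). At EPS 3h, 1 was higher and 4 lower (26.1% and 25.9%). *Vldlr*, a lipoprotein receptor, fell from 16.9 ± 4.38 to 8.91 ± 2.88 CPM at EPS 3h (log2FC = -0.92). The acyl-CoA synthetase *Acsl4* rose at EPS 3h (log2FC = 0.54), while *Acsl5* fell at EPS 0h (log2FC = -0.35).

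Of 23 tested genes of fatty acid oxidation, 5 were lower at EPS 0h and 5 at EPS 3h (18.4% and 25.9% of all tested genes). The peroxisomal thiolase *Acaa1a* had the largest called fall at both times among those with at least 5 CPM (log2FC = -0.60 and -0.57). With KD at Rest 2 were higher and 3 lower (5.54% and 4.47% of all tested genes). *Acadm*, the medium-chain acyl-CoA dehydrogenase, fell from 105 ± 10.6 CPM in control to 67.3 ± 5.32 CPM in KD libraries without overlap (log2FC = -0.63 ± 0.07, FDR = 9.06e-08). *Decr1*, which handles unsaturated fatty acids, was higher (log2FC = 0.34).

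Of 16 tested genes of triglyceride and lipid droplet metabolism, 2 were higher and 5 lower at EPS 0h (all tested genes: 20.5% and 18.4%). At EPS 3h, 2 were higher and 8 lower (26.1% and 25.9%). *Gpam*, which catalyses the first step of glycerolipid synthesis, rose from 118 ± 8.43 to 188 ± 18.3 CPM at EPS 0h (log2FC = 0.68, FDR = 1.28e-06) and was at 149 ± 11.2 CPM at EPS 3h (log2FC = 0.34). *Plin4*, a relative of *Plin2*, fell instead, from 12.1 ± 1.29 to 5.42 ± 1.03 CPM at EPS 3h (log2FC = -1.16, FDR = 4.39e-05). With KD at Rest, *Mgll*, the lipase of monoglycerides, was higher (log2FC = 0.41), and *Dgat2*, which makes triglycerides, was lower (log2FC = -0.56).

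Around pyruvate dehydrogenase (11 tested), 1 was higher at EPS 0h (20.5% of all tested genes). At EPS 3h, 1 was higher and 1 lower (26.1% and 25.9%). *Pdk2*, another kinase of the complex, was lower in KD at Rest without overlap, at 26.8 ± 2.66 against 38.8 ± 3.22 CPM (log2FC = -0.53, FDR = 0.000122). *Pdk3* rose at EPS 0h (log2FC = 0.29), the subunit gene *Pdhb* rose at EPS 3h (log2FC = 0.30) and the phosphatase *Pdp2* fell there (log2FC = -0.43). The fall of *Pdk4* after EPS thus stood beside a rise of *Pdk3* at EPS 0h.

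The genes whose log2 CPM ran most like those of the 3 members with the widest group means were sought among 10626 genes with a mean of at least 5 CPM. Over the 36 libraries, *G0s2* was most like *Mid1ip1* (Pearson r = 0.957) and *Kbtbd11* (0.946). *Cpt1a* was most like *Srebf1* (0.967), a transcription factor of lipid synthesis, and *Csf1* (0.946). *Angptl4* was most like *Sqstm1* (0.934) and *Nop56* (0.894). These points share the groups and replicate sets.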

How the data were processed

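RNA-seq libraries of 36 C2C12 myotube wells were analysed from gene counts deposited by the authors, who trimmed reads with fastp (v0.14.1), checked them with FastQC (v0.11.7) and aligned them to GRCm39 with STAR (v2.5), per the labels. The counter and its strand setting are not given in the sources used here. The genes and lists were chosen with earlier results of these data known. Genes with at least 1 CPM in at least 12 libraries (13995) were fitted in edgeR (v4.0.16) with TMM factors, the quasi-likelihood test and contrasts between the 6 groups, and p-values were adjusted over all tested genes (Benjamini-Hochberg, FDR under 0.05). The text names all 10 genes, *Tug1*, the PPAR and PGC-1 genes and, per list and for KD at Rest and both EPS states of control, the largest called rise and fall among genes with at least 5 CPM in the higher group. A gene that this rule names is not reported here. The SE of a log2FC was derived as its absolute value divided by the square root of the F statistic of the edgeR test. The 95% intervals used this SE and a t quantile on the residual degrees of freedom alone. Alternatives to the edgeR fit were limma-voom (limma v3.58.1), DESeq2 (v1.42.0), other scalings, no filter, replicate sets and blocks. On simulated counts for EPS 0h against Rest in control, over 13995 genes, edgeR recovered 87.0% of 200 genes changed by 1 on the log2 scale, and 63.0% for the interaction.

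Libraries with the same replicate number deviated together, with every correlation over 0.1, for KD against control at EPS 0h (0.57 to 0.714) and EPS 3h (0.207 to 0.716), for Rest against EPS 0h and EPS 3h in control, and for EPS 0h against Rest and EPS 3h in KD. This pairing comes from the data, since the labels give numbers only. No 2 libraries agreed within sampling noise. Motifs were searched on both strands of GRCm39 around GENCODE vM39 canonical start sites, whose transcripts also gave the lengths for RPKM.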

Additional observations from a re-analysis of the deposited data

Results flagged for a closer look

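Among 60 sets of 6 libraries (10 genes in 6 groups), 2 held a library far from its neighbours by Dixon's test, and chance flags about 1 in 20. *Pdk4* was at 35.9 CPM in replicate 3 of EPS 0h control, and *G0s2* at 21.0 CPM in replicate 6 of Rest *Tug1* KD.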

How the results depend on the processing

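Over 9 alternatives, 700 of 792 values of single genes kept their direction and side of the threshold, 41 passed it newly, 7 no longer passed it, and 44 values that had not passed changed sign. No called value reversed. Library size as the only scaling moved the median log2FC of all tested genes for EPS 3h against Rest from -0.02 to -0.19 in control and from -0.04 to -0.20 in KD, and DESeq2 and upper quartile factors moved no median by over 0.1. The number of the 8 genes called for *Tug1* KD at Rest was 0, and it was 1 with DESeq2 or library size as the only scaling, 4 with the replicate block (*Angptl4*, *Cd36*, *Ucp2* and, with an FDR of 0.0421, *Plin2*), 3 with the experiment block, 1 in replicates 1 to 3 and 3 in replicates 4 to 6. At EPS 0h it was 1, and 2 without the filter, 3 with the replicate block, 2 with the experiment block and 2 in either set alone. At EPS 3h it was 1, and 2 with either block. The calls among all tested genes moved as well. At Rest they were 1401, and 1639 with DESeq2, 1381 with library size alone, 2410 with the replicate block and 2232 with the experiment block. The 2 sets alone called 866 and 2256 there. At EPS 0h they were 2005, and 3406 and 3179 with the 2 blocks and 940 and 2329 in the sets. Without the filter 1295 of 39727 genes were called there. At EPS 3h they were 1608, and 2878 and 2611 with the 2 blocks. For EPS 0h against Rest, replicates 4 to 6 alone called 2 genes in place of 4 in control and 3 in place of 5 in KD. Of all tested genes they called 4173 in place of 5441 in control and 3980 in place of 6388 in KD. For EPS 3h against EPS 0h, 1 gene was called in each LNA group. In control it became 3 with the replicate block, which added *Cpt1a* (-0.28, FDR = 0.00211) and *Angptl4* (0.62, FDR = 0.022), 2 with the experiment block and 2 in replicates 1 to 3. In KD it became 3 with either block and 2 in replicates 4 to 6. Over all tested genes the control step called 2317, and 3531 and 3291 with the replicate and experiment blocks and 1929 in replicates 1 to 3. The KD step called 2200, and 3366 and 3102 with these blocks and 1795 in replicates 4 to 6. The sets hold 3 libraries per group, which lowers what they can call, and the cause of the other changes was not tested. Counts limit statements on *Cpt1b* and *Ucp3*. Same-numbered libraries did not all deviate together for KD against control at Rest (lowest correlation -0.0767), EPS 3h against EPS 0h in control (-0.029) and EPS 3h against Rest in KD (0.0771), where the replicate block added *Angptl4* (0.50). There, 6, 5 and 3 of the 12 libraries, respectively, correlated best with the library of their own number. The replicate block changed no other call than these and those of *Cd36*, *Angptl4*, *Cpt1a* and *Pnpla2* given with those genes.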
